A study of Mus musculus with 25 samples.

Results

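The genes described here are 8 regulators of mitochondrial biogenesis in 3T3-L1 adipocytes, fat cells made in culture from a mouse line of fibroblast-like preadipocytes: Ppargc1a, Ppargc1b, Esrra, Nrf1, Gabpa, Tfam, Tfb2m and Nrip1. They were chosen by name, and every probe set that the platform annotation gives to one of them was taken, which made 23 probe sets of 45101 on the array and 8 genes of 18194 with a probe set of their own. Cells received CLA (the treatment) or LA (the control) and total RNA was taken at 4, 8, 12 and 24 h. The labels do not spell out the abbreviations, which usually stand for conjugated linoleic acid and linoleic acid, and dose and isomer are not given in the sources used here. At 4 h there were 2 CLA and 3 LA arrays, while 8 h had 3 of each, 12 h had 4 of each and 24 h had 3 of each, 25 in all, which the labels call biological replicates. All arrays come from 1 cell line, so the replicates are cultures and not animals.

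Mitochondrial biogenesis is run from the nucleus, because most mitochondrial proteins are encoded there. The coactivators PGC-1 alpha (Ppargc1a) and PGC-1 beta (Ppargc1b) bind transcription factors such as ERR alpha (Esrra), NRF-1 (Nrf1) and GABP (Gabpa encodes its DNA-binding subunit) and raise the genes of the respiratory chain and of fat oxidation. NRF-1 and GABP also drive Tfam and Tfb2m, which act on mitochondrial DNA, while NRIP1 (RIP140) is a corepressor that holds many of the same oxidative genes down in white fat cells.

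The promoters of Tfam and Gabpa are shown because they were the only windows of these regulators with a match to any of the motifs searched. Windows were found for 7 of the 8 genes, 9 windows in all, in the RefSeq promoter table of build GRCm38.p6. Each sequence below is the 250 bases before the annotated start, 5′ to 3′ on the gene's strand, with the match to the ETS motif that GABP binds in capitals. The Tfam window is chr10:71238045-71238294 on the minus strand and the Gabpa window is chr16:84834874-84835123 on the plus strand.
Tfam: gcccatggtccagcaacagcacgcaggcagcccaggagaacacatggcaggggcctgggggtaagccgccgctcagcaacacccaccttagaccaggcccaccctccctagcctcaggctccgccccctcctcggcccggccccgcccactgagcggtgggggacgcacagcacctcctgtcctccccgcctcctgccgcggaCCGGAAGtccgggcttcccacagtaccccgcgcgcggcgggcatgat
Gabpa: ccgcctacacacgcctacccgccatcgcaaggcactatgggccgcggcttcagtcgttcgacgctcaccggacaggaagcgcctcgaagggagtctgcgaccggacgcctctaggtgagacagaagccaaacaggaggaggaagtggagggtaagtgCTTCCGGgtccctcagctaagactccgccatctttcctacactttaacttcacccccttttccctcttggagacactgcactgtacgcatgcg
The capitals lie at -47 to -41 in Tfam, as CCGGAAG, and at -93 to -87 in Gabpa, as its reverse complement CTTCCGG. Of 32851 promoter windows of the table, searched over 250 bases before to 50 after the start on both strands, 8.86% held CCGGAAG, 4.60% the 10-letter NRF-1 motif, 1.28% the ERR half-site TNAAGGTCA and 1.79% the CRE motif TGACGTCA. These matches are a description of the letters and were not tied to any value of the arrays.

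The values are array intensities, brought to 1 distribution over the arrays and called normalised intensity below. Differences are CLA minus LA on the log2 scale, each with its standard error from limma, and p-values are Benjamini-Hochberg adjusted over all 14428 genes tested, with 0.05 as the threshold. All 23 probe sets passed the filter on dim signals. The arrays fell into sets that the labels do not name. The 75th percentile of deposited intensity was as low as 26.5 (LA 8 h replicate 3), and signal from the 3′ end of actin exceeded that from its 5′ end 8.11 times on LA 4 h replicate 1 and 5.67 times on LA 12 h replicate 1, a sign of shortened RNA. The planned fit had 5 such sets, found by complete linkage, as a term. Of these, 3 sets held a single array, LA 4 h replicates 1 and 3 and LA 8 h replicate 3, and a set of 1 array drops that array from the comparison. The planned differences at 4 h thus rest on 1 LA array and those at 8 h on 2, while at 12 and 24 h every array counts.

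No regulator passed the threshold at any time in the planned fit. The counts were 0 of 8 genes at 4, 8, 12 and 24 h, against 0.0208%, 0.00693%, 0.0624% and 0.0% of all genes tested, and at an unadjusted p under 0.05 limma gave 0, 2, 1 and 0 of the 8, against 3.08%, 6.88%, 8.77% and 6.94% of all genes. Among all 23 probe sets the count was also 0 at each time, against 0.0341%, 0.00378%, 0.0227% and 0.0% of the 26421 probe sets tested. By sign alone, 7, 7, 6 and 8 of the 8 genes were lower under CLA, where 53.1%, 52.5%, 49.9% and 48.9% of all genes tested were lower. The median difference of the 8 genes was -0.31, -0.44, -0.28 and -0.44, against -0.03, -0.03, 0.00 and 0.01 over all genes tested. The 8 h values depend on the term for the array sets described next: without it, or with the replicate number in its place, 3 of 8 genes were lower with a median of 0.07, and with the other forms of the sets 4 of 8 were lower with medians of 0.00 to 0.11. At 4 h the lower genes numbered 4 to 8 over the other versions of the term, with medians of -0.47 to -0.03. At 12 and 24 h neither the counts nor the medians could change with the term, as each set held as many CLA as LA arrays. Their agreement there is thus no test of the term. With the larger offset described below, the counts were again 7, 7, 6 and 8, and the medians were -0.13, -0.19, -0.13 and -0.22. In whole-culture RNA, fewer cells of a kind and less RNA per cell cannot be told apart.

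How the unlabelled sets of arrays were drawn decided whether any regulator was called. In all, 6 versions of this term were run: none, the replicate number, complete linkage over all probe sets (the planned one), complete linkage over the probe sets past the filter, and Ward linkage over each of these. Ward linkage over the probe sets past the filter, named the Ward fit below, called 1 regulator at 1 time, Ppargc1b at 12 h, and the other 5 versions called 0 at every time, all at the smaller offset. With the larger offset the calls of some versions differ, as given with the alternatives at the end. The Ward fit departs from the plan: its form was settled after member calls had been seen, because its sets matched those an earlier analysis of these data described. Its sets, like those of the planned fit, were made from the same values that they adjust. Its errors were smaller than those of the planned fit, and the part of this circularity in that was not tested. The median standard error at 24 h was 0.30 in the Ward fit and 0.42 in the planned fit, and the genes called at 24 h numbered 664 and 0. At 12 and 24 h the estimated differences of Ppargc1b were the same in all 6 versions. Those of all 8 regulators were the same in the Ward and planned fits. This was fixed by the balance of the sets, each with as many CLA as LA arrays at these times. Only the errors and calls there depend on the choice. In the Ward fit each set at 12 and 24 h held the CLA and LA arrays of 1 replicate number.

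**Figure D1:**
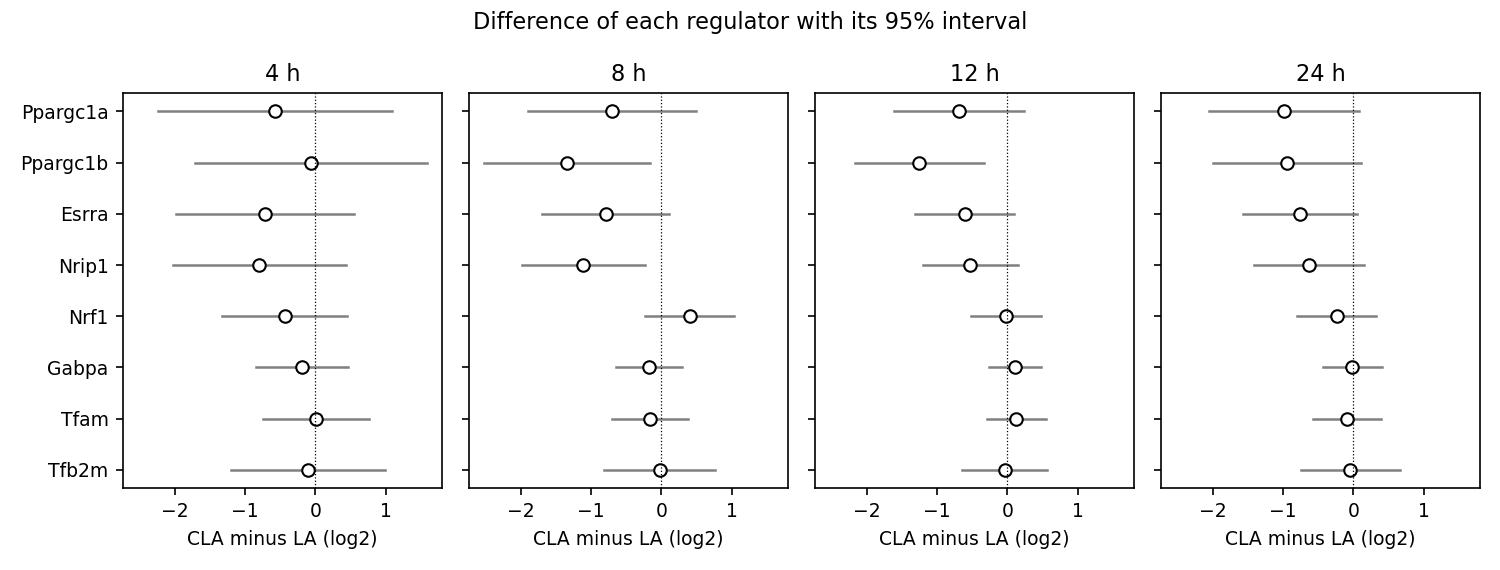
Difference of each regulator, CLA minus LA (log2, x axis), at each time, with its 95% interval from the planned fit. The intervals of Ppargc1b at 8 and 12 h and of Nrip1 at 8 h lie below 0, and none of the 32 differences passed the adjusted threshold.

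Ppargc1b, the coactivator PGC-1 beta, had a lower mean under CLA than under LA at 8, 12 and 24 h, though none of these differences passed the planned threshold. At 4 h its normalised intensity was 237 and 214 in CLA arrays, against 231, 252 and 243 in LA arrays. At 8 h it was 117, 127 and 49.5 in CLA arrays, against 263, 202 and 149 in LA arrays. The groups overlapped at 4 h and lay apart at 8 h. At 12 h it was 140, 105, 36.8 and 59.8 in CLA arrays, against 169, 259, 152 and 163 in LA arrays, again without overlap. At 24 h it was 147, 137 and 63.5 in CLA arrays, against 259, 274 and 131 in LA arrays, where LA replicate 3 lay below CLA replicates 1 and 2. The means were 85.4 ± 46.1 in CLA arrays and 186 ± 49.2 in LA arrays at 12 h (SD, n = 4 each).

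The difference of Ppargc1b in the planned fit was -0.06 ± 0.78 at 4 h (SE, limma adjusted p = 1), -1.34 ± 0.56 at 8 h (limma adjusted p = 0.664), -1.25 ± 0.43 at 12 h (limma adjusted p = 0.397) and -0.94 ± 0.50 at 24 h (limma adjusted p = 0.764). The 12 h difference is a CLA level 0.419 times the LA level, with a 95% interval of -2.17 to -0.34 on the log2 scale. Arrays with the same replicate number deviated together at 12 and 24 h, and within these pairs Ppargc1b was lower under CLA in 4 of 4 pairs at 12 h (-2.02 to -0.27) and in 3 of 3 at 24 h (-1.03 to -0.81). At 24 h Ppargc1a, Esrra, Nrf1, Tfam and Nrip1 were also lower in 3 of 3 pairs. The share of all genes lower in every pair was not worked out. The pair counts here and in the paragraphs below thus have no background and are descriptions only. With the replicate number as a block the limma adjusted p at 12 h was 0.0674. It was 0.628 without any such term, 0.415 with complete linkage over the probe sets past the filter, 0.118 with Ward linkage over all probe sets and 0.00823 in the Ward fit. That one call stands against 2.4% of all genes called lower and 2.29% called higher in the Ward fit at 12 h. At 4, 8 and 24 h the Ward fit called 0 of the 8 regulators, against 0.0208% of genes at 4 h, 0.561% lower and 1.25% higher at 8 h, and 3.72% lower and 0.88% higher at 24 h.

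The offset added before the logarithm mattered too. With the larger offset of 57.7 in the planned fit, 0 regulators were called at any time, against 0.0%, 0.124%, 0.214% and 0.0% of genes at 4, 8, 12 and 24 h. The differences became smaller with it: that of Ppargc1b was -0.93, -0.80 and -0.67 at 8, 12 and 24 h. With that offset and the Ward sets together, Ppargc1b and Nrip1 were called lower at 8, 12 and 24 h, where 2.28%, 4.23% and 5.54% of all genes were called lower. The limma adjusted p of Ppargc1b was then 0.0177, 0.000661 and 0.006, and that of Nrip1 0.0295, 0.0472 and 0.0345.

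Ppargc1a, the coactivator PGC-1 alpha, gave dim signals on all of its 5 probe sets. Its brightest probe set read 9.49 and 23.9 in CLA arrays at 4 h, against 56.4, 26.1 and 9.21 in LA arrays. At 8 h it read 40.4, 26.2 and 12.4 in CLA arrays, against 52.4, 29.5 and 2.55 in LA arrays. The groups overlapped at both times. At 12 h it read 36.3, 13.3, 19.1 and 22.2 in CLA arrays, against 48.5, 35.1, 27.6 and 32.0 in LA arrays. At 24 h it read 40.7, 12.6 and 20.4 in CLA arrays, against 63.1, 41.2 and 33.8 in LA arrays. CLA replicate 1 overlapped the LA arrays at both of these times, and within pairs CLA was lower in 4 of 4 and 3 of 3. The differences were -0.58 ± 0.78, -0.71 ± 0.56, -0.69 ± 0.43 and -0.99 ± 0.50 at 4, 8, 12 and 24 h, with a limma adjusted p of 0.758 at 24 h. With the larger offset they were -0.14, -0.24, -0.23 and -0.35, so their size rests on the offset. At 8 h the difference was 0.46 without any term for the sets, in which LA replicate 3, at 2.55, is kept. All 5 probe sets were lower under CLA at 24 h, by -0.99 to -0.56.

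**Figure D2:**
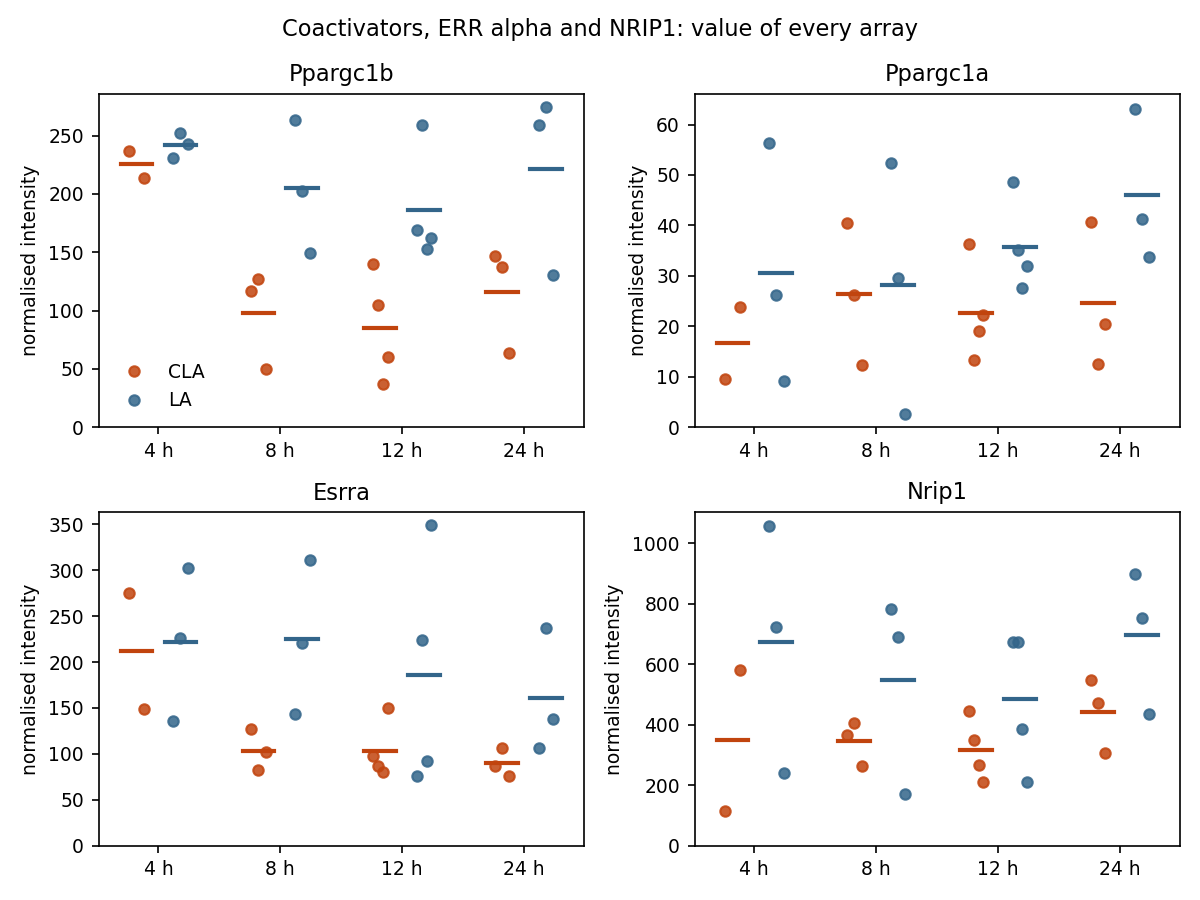
Normalised intensity (y axis, linear, from 0) of every array at each time, CLA left of LA, for the probe set used of Ppargc1b, Ppargc1a, Esrra and Nrip1, with a bar at each group mean. The Ppargc1b groups lie apart at 8 and 12 h, while those of Ppargc1a and Nrip1 overlap at 4, 8, 12 and 24 h.

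Esrra, which encodes the orphan nuclear receptor ERR alpha that works with both coactivators, had a lower mean under CLA at 8, 12 and 24 h, with no difference past the planned threshold. It lies at chr19:6910977-6922048 in the RefSeq annotation of GRCm38.p6. Its brighter probe set read 276 and 149 in CLA arrays at 4 h, against 136, 226 and 302 in LA arrays. At 8 h it read 127, 82.1 and 102 in CLA arrays, against 143, 220 and 312 in LA arrays. The 8 h groups did not overlap. At 12 h it read 97.5, 86.8, 79.8 and 150 in CLA arrays, against 75.5, 224, 92.3 and 350 in LA arrays. At 24 h it read 87.1, 106 and 76.1 in CLA arrays, against 107, 238 and 138 in LA arrays. Within pairs CLA was lower in 3 of 4 at 12 h and 3 of 3 at 24 h. The groups overlapped at 12 h, and at 24 h the highest CLA array lay just under the lowest LA array. The differences were -0.71 ± 0.59, -0.79 ± 0.43, -0.60 ± 0.33 and -0.76 ± 0.38, and the limma adjusted p was 0.787, 0.661 and 0.751 at 8, 12 and 24 h. In the Ward fit the limma adjusted p was 0.369, 0.236 and 0.198. At 4 h the difference was -0.06 without any term for the sets. The second, dim probe set differed by 0.55, -0.78, -1.75 and -0.65 at 4, 8, 12 and 24 h.

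Nrf1, which encodes the transcription factor NRF-1, showed no shared direction among its 4 probe sets. The probe set used read 21.9, 40.6 and 32.7 in CLA arrays at 24 h, against 29.2, 44.3 and 37.6 in LA arrays, so the groups overlapped. It was lower under CLA in 3 of 3 pairs at 24 h (-0.40 to -0.12) and in 2 of 4 at 12 h. Its differences were -0.43 ± 0.42, 0.40 ± 0.30, -0.02 ± 0.23 and -0.24 ± 0.27 at 4, 8, 12 and 24 h. The group means at 4 h went the other way (5.03 in CLA and 4.75 in LA arrays, log2). The sign at 4 h held in 14 of 21 settings of the processing. With the larger offset the differences were -0.16, 0.14, -0.01 and -0.09, so their size rests on the offset. At 24 h 3 of the 4 probe sets were higher under CLA, and they spanned -0.24 to 0.58. Gabpa, the DNA-binding subunit of GABP, read 184, 130 and 201 in CLA arrays at 24 h, against 172, 157 and 182 in LA arrays. The CLA values spread around the LA values, and the difference was -0.01 with a 95% interval of -0.44 to 0.41. At 12 h it was 0.11, with an interval of -0.26 to 0.47.

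Tfam packages mitochondrial DNA and starts its transcription, and its CLA and LA arrays overlapped at 12 and 24 h. It read 193, 153, 161 and 124 in CLA arrays at 12 h, against 192, 164, 115 and 113 in LA arrays. At 24 h it read 179, 123 and 146 in CLA arrays, against 186, 132 and 159 in LA arrays. The lowest array at 24 h was a CLA array and the highest an LA array. Tfam was lower under CLA in 3 of 3 pairs at 24 h (-0.12 to -0.05) and in 1 of 4 at 12 h. The difference was 0.13 at 12 h (95% interval -0.29 to 0.55) and -0.09 at 24 h (-0.57 to 0.39). Tfb2m, a factor that mitochondrial RNA polymerase needs to open promoters, read 150, 109 and 104 in CLA arrays at 24 h, against 124, 132 and 114 in LA arrays. Its difference was -0.04 at both 12 h and 24 h, with intervals of -0.65 to 0.57 and -0.75 to 0.66. These intervals leave room for changes of either sign, so equal levels were not shown.

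**Figure D3:**
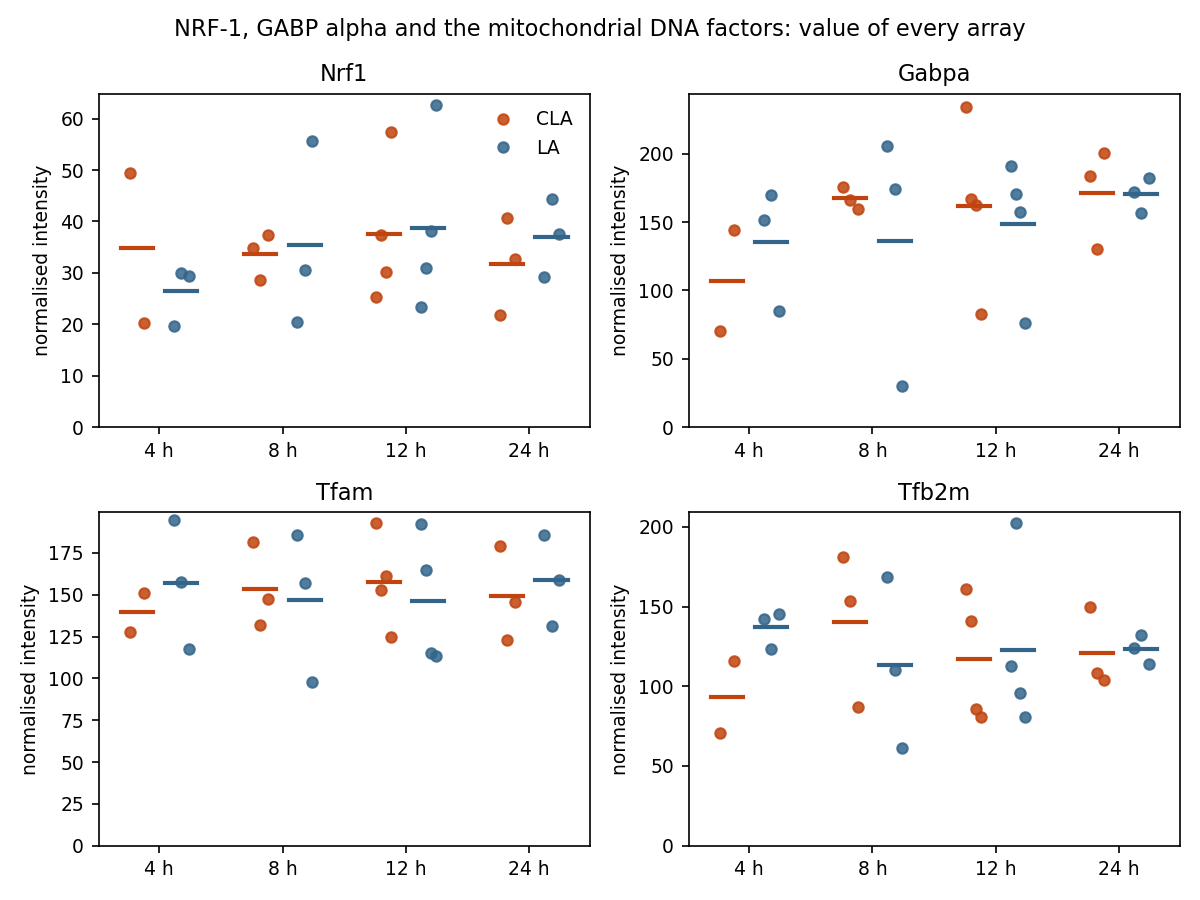
Normalised intensity (y axis, linear, from 0) of every array at each time, CLA left of LA, for the probe set used of Nrf1, Gabpa, Tfam and Tfb2m, with a bar at each group mean. At 12 and 24 h the CLA and LA points of all 4 genes overlap.

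Nrip1, the corepressor, lies at chr16:76287403-76373827 in the same annotation. Its brightest probe set read 114 and 581 in CLA arrays at 4 h, against 1056, 724 and 241 in LA arrays. At 8 h it read 367, 407 and 264 in CLA arrays, against 783, 689 and 170 in LA arrays. LA replicate 3 was the lowest array at 8 h, and the other LA arrays lay above all CLA arrays. At 12 h it read 445, 349, 265 and 209 in CLA arrays, against 674, 674, 385 and 211 in LA arrays. At 24 h it read 548, 470 and 307 in CLA arrays, against 897, 754 and 436 in LA arrays. The groups overlapped at both times, while within pairs CLA was lower in 4 of 4 (-0.95 to -0.01) and 3 of 3 (-0.71 to -0.51). The differences were -0.80 ± 0.58, -1.11 ± 0.41, -0.52 ± 0.32 and -0.63 ± 0.37, and the limma adjusted p was 0.625 at 8 h and 0.826 at 24 h. With LA 8 h replicate 3 kept, in the fit without any term for the sets, the 8 h difference was -0.41. Of its 6 probe sets, 5, 6, 5 and 5 were lower under CLA at 4, 8, 12 and 24 h.

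**Figure D4:**
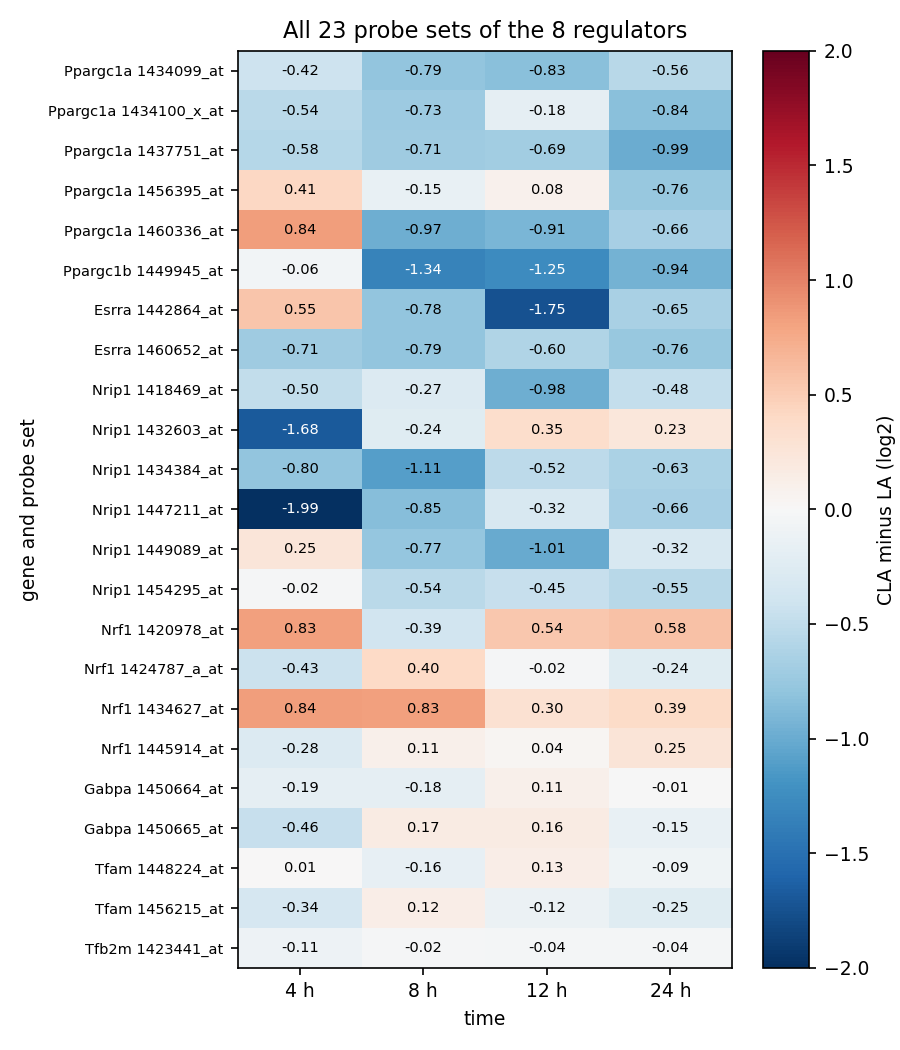
Difference, CLA minus LA (log2, colour and printed value), of each of the 23 probe sets (rows) at each time (columns) in the planned probe set fit. At 24 h the 5 probe sets of Ppargc1a, the 1 of Ppargc1b and both of Esrra are lower under CLA, while 3 of 4 of Nrf1 are higher.

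Whether an effect differed between times was tested directly. The moderated F-test in limma for a change of the CLA effect called 0 regulators, against 0.0% of genes, and 0 regulators had an unadjusted p under 0.05, against 2.32% of genes. Change over time called 0 regulators within LA arrays, against 0.0208% of genes, and 0 within CLA arrays, against 0.0% of genes, with 0 at an unadjusted p under 0.05 in each, against 2.75% and 6.18% of genes in LA arrays and in CLA arrays, shares at which 0 of 8 is near the background. The difference of Ppargc1b was lower at 12 h than at 4 h by -1.19 ± 0.89 (limma adjusted p = 1), so the near-equal levels at 4 h and the lower CLA levels at 12 h were not shown to differ. Within CLA arrays Ppargc1b at 12 h minus 4 h was -1.61 ± 0.54. The F-test in limma over all times within CLA arrays gave Ppargc1b an adjusted p of 0.811 (0.0574 unadjusted).

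The authors' deposited table gives 1 ratio per probe set and time, with the arrays of a group combined. Its direction is not stated in the header and was read as CLA over LA, because its first intensity column followed the LA arrays more closely at all 4 times. For Ppargc1b the authors' deposited table gives ratios of 0.949, 0.457, 0.481 and 0.519 at 4, 8, 12 and 24 h, with p-values of 0.82, 0.0107, 0.0281 and 0.029. For the brighter Esrra probe set the authors' deposited table gives 0.559 at 8 h (p = 0.042) and 0.503 at 24 h (p = 0.0494). Of lower ratios with p under 0.05 the authors' deposited table has 0, 2, 1 and 2 among the 23 probe sets at 4, 8, 12 and 24 h, against 0.304%, 1.95%, 1.26% and 1.96% of all its probe sets, and 0 higher ones at any time, against 0.565%, 2.43%, 1.46% and 0.962%. These p-values are not adjusted as far as the header says, and they come from the same arrays.

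Pprc1, the third coactivator of the PGC-1 family, ran the other way from Ppargc1b. It was singled out after its values were seen, from the list of PGC-1 partners. At 8 h it read 118, 211 and 185 in CLA arrays, against 71.2, 111 and 118 in LA arrays. At 12 h it read 122, 224, 191 and 210 in CLA arrays, against 85.9, 85.5, 80.3 and 103 in LA arrays. At 24 h it read 140, 211 and 151 in CLA arrays, against 87.4, 102 and 103 in LA arrays. The groups touched at 8 h and lay apart at 12 and 24 h, and CLA was higher in every pair at 12 and 24 h. The difference was 0.90 ± 0.30 at 8 h, 1.03 ± 0.24 at 12 h and 0.76 ± 0.27 at 24 h, with a limma adjusted p of 0.563, 0.155 and 0.532 in the planned fit. With the replicate block the limma adjusted p was 0.157, 0.0316 and 0.191, and in the Ward fit 0.0298, 0.00229 and 0.0173. The 12 h call was made in both of these and not in the planned fit. At 12 and 24 h both versions pair the same arrays, so they do not count as separate results there. All genes called higher were 0.104% at 12 h with the replicate block, and 1.25%, 2.29% and 0.88% at 8, 12 and 24 h in the Ward fit.

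The genes that these regulators are known to drive lay lower under CLA as groups, by sign and median, though no list gene passed the planned threshold at any time. Of 27 ERR alpha targets tested, 24 were lower at 24 h with a median of -0.60, and of 26 NRF-1 or GABP targets 22 were lower with a median of -0.37, where the median of all genes was 0.01. The lists share 5 genes, and of the 48 genes in either, 37, 45, 39 and 41 were lower at 4, 8, 12 and 24 h, with medians of -0.15, -0.39, -0.19 and -0.47. The count was thus higher at 8 h than at 24 h. In the Ward fit 27 and 41 of the 48 were lower at 4 and 8 h, with medians of -0.02 and -0.16. In that fit 19 ERR alpha targets and 11 NRF-1 or GABP targets fell and 0 rose at 24 h, where 3.72% of all genes were called lower and 0.88% higher. Of the 48 genes 0, 0, 3 and 26 fell in it at 4, 8, 12 and 24 h. The counts at 24 h were 5 and 1 with Ward linkage over all probe sets, where 1.24% of all genes were called lower, and 0 and 0 with the replicate block, where 0.166% were, with complete linkage in either form and without a term. The lists were written with earlier results of these data known, and these counts are not independent of those results.

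Among single targets, Cox7a1, a cytochrome oxidase subunit of muscle and brown fat, differed by -2.45 ± 0.75 at 24 h (limma adjusted p = 0.463, and 0.00242 in the Ward fit), and by -1.09 with the larger offset. Acadm, the medium-chain acyl-CoA dehydrogenase of fat oxidation, differed by -0.75 ± 0.28 (0.551 and 0.0268). Uqcrfs1, the Rieske protein of complex III, differed by -1.08 ± 0.36 (0.48 and 0.000791), and Sdhb, a subunit of complex II, by -1.06 ± 0.34 (0.475 and 0.00203). Cycs, cytochrome c, differed by -0.44 ± 0.35, while Pdk4, the kinase that restrains pyruvate dehydrogenase, was higher by 0.49 ± 0.36. Ucp1, the uncoupling protein of brown fat, did not pass the filter on dim signals.

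**Figure D5:**
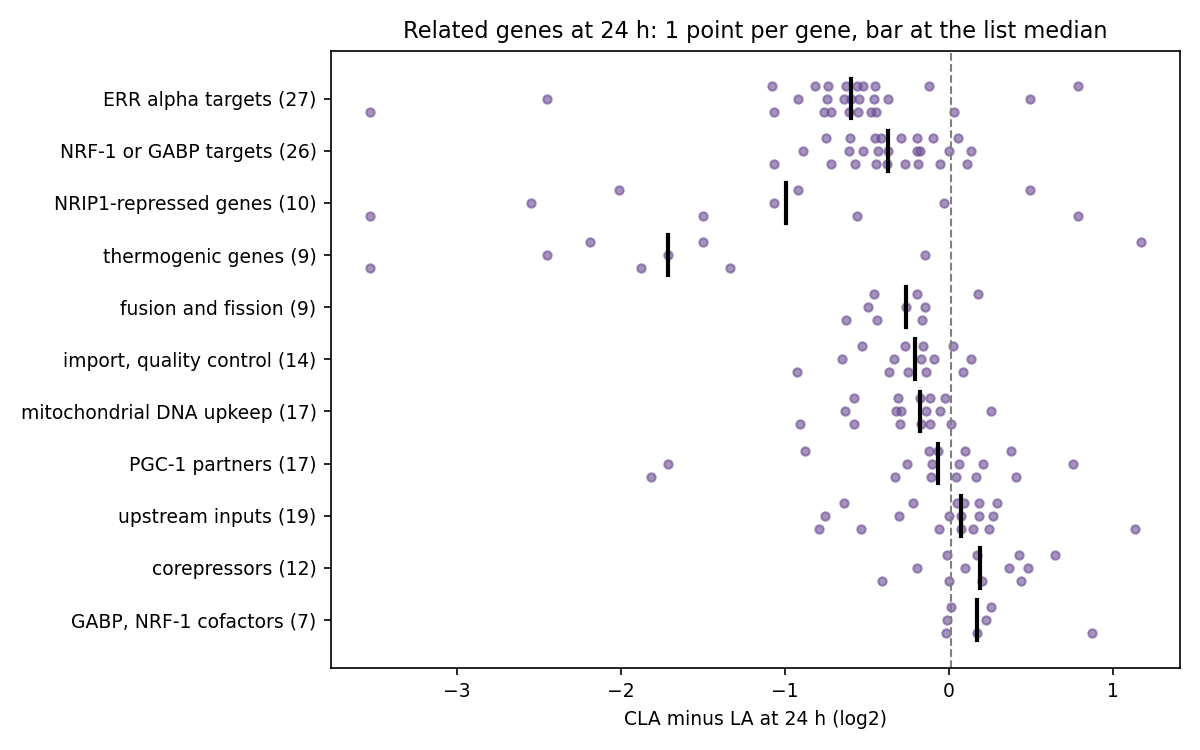
Difference, CLA minus LA at 24 h (log2, x axis), of each gene tested in 11 lists related to these regulators, with the number tested in brackets, a bar at the list median and a dashed line at the median of all genes. The medians of ERR alpha targets (-0.60), NRIP1-repressed genes (-0.99) and thermogenic genes (-1.71) lie furthest below that line at the smaller offset plotted here. With the larger offset these medians are -0.54, -0.66 and -0.17.

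Genes that NRIP1 is known to repress lay lower at 24 h as Nrip1 did: 8 of 10 tested were lower, with a median of -0.99, 0 called in the planned fit and 6 in the Ward fit, where 3.72% of all genes were called lower. Of these 10 genes 5 are also among the ERR alpha targets, so the lists do not count separate genes. With the larger offset the median was -0.66. The glucose transporter gene Slc2a4 differed by -2.55 ± 0.52 (limma adjusted p = 0.174) and Fasn, fatty acid synthase, by -2.01 ± 0.58 (limma adjusted p = 0.432). Thermogenic genes had a median of -1.71, with 8 of 9 lower, and the median was -0.17 with the larger offset. The upkeep of mitochondrial DNA had a median of -0.18 with 15 of 17 lower, fusion and fission -0.26 with 8 of 9, and import and quality control -0.21 with 11 of 14. In the Ward fit 2, 1 and 2 genes of these lists in turn fell at 24 h and 0 rose. Partners of PGC-1 had a median of -0.06 with 9 of 17 lower, and among them Lpin1, which works with PGC-1 alpha in liver, differed by -1.82 ± 0.63 and Pparg by -0.88 ± 0.35. Upstream inputs (0.07, 7 of 19 lower), corepressors (0.19, 3 of 12) and cofactors of GABP and NRF-1 (0.17, 2 of 7) lay at or above the median of all genes. Of the genes encoded by mitochondrial DNA 1 was tested, and it differed by -0.08.

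Adipocyte markers were lower beside these lists. All 11 adipocyte markers tested were lower under CLA at 24 h, with a median of -1.28, 0 called in the planned fit and 8 in the Ward fit (3.72% of all genes called lower), and their summed normalised intensity was 17134 to 27474 in CLA arrays and 30708 to 44592 in LA arrays. Adipoq and Fabp4 were above the array median on 25 of 25 arrays, and Lep on 4. Of 11 preadipocyte and fibroblast markers tested 0 were lower at 24 h, with a median of 0.33 and summed values of 26489 to 34988 in CLA arrays and 23182 to 31943 in LA arrays. Summed macrophage and leukocyte markers, 10 genes, were 231 to 327 in CLA arrays and 140 to 181 in LA arrays at 24 h. Of these 10, Csf1r, Cd14 and Adgre1 averaged 121, 67.0 and 42.8 over the arrays and were above the array median on 25 of 25, and Cd68, Lyz2 and Mrc1 on 15, 11 and 7. The leukocyte genes Ptprc, Itgam, Cd3e and Cd79a averaged 2.93, 2.78, 0.963 and 3.42 and were each above the array median on 1 of 25. Of the 6 macrophage and leukocyte markers tested 2 were lower at 24 h. Cd68 differed by 2.46 ± 0.75 and Cd14 by 1.47 ± 0.70 (limma adjusted p = 0.463 and 0.726), and with the larger offset by 0.33 and 0.63. Mrc1 and Csf1r differed by 1.15 ± 0.82 and 0.73 ± 0.74. Lyz2 and Adgre1 went the other way, by -0.92 ± 0.50 and -0.45 ± 0.30. The part of marker levels in the differences of the regulators was not tested.

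The genes most like each of 4 regulators over the 25 arrays, with the planned set effects taken out, were Hmgb3, Zfp423 and Sbk1 for Ppargc1b (r of 0.93, 0.93 and 0.92), Klc4, Mif4gd and Uck1 for Esrra (0.92, 0.91 and 0.90), Cavin2, Tob1 and Zfp961 for Nrip1 (0.93, 0.91 and 0.89), and Nnmt, Utrn and Plcb1 for Ppargc1a (0.91, 0.90 and 0.87). They were the highest of 7214 genes, those whose mean lay above the median of the genes tested. The arrays share treatment, time and dimness. An array alone in its set takes the fitted value of its group here, so r rests on fewer than 25 separate readings. Among the regulators themselves, r was 0.76 between Ppargc1b and Nrip1 and 0.71 between Ppargc1b and Esrra, and -0.03 between Esrra and Tfam. It was 0.68 between Ppargc1a and Nrip1, 0.66 between Gabpa and Tfam, and -0.63 between Nrf1 and Tfam.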

How the data were processed

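RNA of 25 cultures was measured on 1-colour Affymetrix arrays from biotin-labelled cRNA, per the labels' protocols. The deposited value table holds background-subtracted intensity per probe set, and 21.6% of the values are at or below 0; the summary method is not given in the sources used here. Beside it the authors' deposited tables hold, per probe set and time, a ratio, its log10, an error score, a signal for each side and a p-value, made with Rosetta Resolver per the file names.

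Here intensities below 0 were set to 0, 0.984 was added, which is the 25th percentile over the whole table, and log2 values were quantile normalised. Each of the 18194 genes took its probe set with the highest mean, named through the platform annotation (34958 probe sets with 1 symbol, 932 with several, 9211 with none). Genes above the array median on at least 2 arrays were tested. Fits used limma 3.58.1 in R 4.3.3 (lmFit, eBayes) with 8 group means and the array set. A run on simulated data checked only that differences put in were returned near their size in the median. Its noise was independent and its sets were known, so it could not test how the sets were drawn. The share of true changes it recovers is not given here. The number of arrays limits the precision.

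The plan named complete-linkage clustering on 1 minus Pearson r, cut into 5 sets, where the script of an earlier analysis was not given, and that is the planned fit. The Ward fit was added after the data and member calls had been seen; 6 versions of the term were run in all. Arrays with the same replicate number deviated together at 12 h (r of 0.50, 0.16, 0.31 and 0.56) and 24 h (0.34, 0.26 and 0.28), and the pairing there rests on this check. At 4 h r was -0.24 and 0.33, and at 8 h it was 0.31, 0.17 and 0.07. All 8 h values were thus positive, and the lowest r at 12 h (0.16) lay below 0.31 and 0.17. No cut-off on r set 8 h apart from 12 h. No 2 arrays held identical values. Members and lists were chosen with earlier results of these data known. Named genes are all members, 6 textbook targets, cell type markers and the 3 genes most like each of 4 members. Up to 4 genes per list and time with the smallest p past the threshold were to be added. As no list gene passed the planned threshold, some list genes called in the Ward fit were named instead. They are not all that the rule would give from that fit. Pprc1 was named after its values were seen.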

Additional observations from a re-analysis of the deposited data

Results flagged for a closer look

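In groups of 4 arrays, single arrays that stood far from the rest were looked for on 24 probe sets in 48 groups, of which 2 had one; chance gives about 1 in 20 groups. On the Ppargc1b probe set LA 12 h replicate 2 read 259, and the next LA array read 169. On the Nrip1 probe set with the lowest mean log2 value LA 12 h replicate 4 read 0, and the next LA array read 68.5.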

How the results depend on the processing

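The planned fit called 0 regulators at each time. That count stayed 0 under each of these changes: no term for the sets, the replicate block, 2 other scalings, the larger offset, 2 other filters, the mean of all probe sets, each probe set on its own, a prior variance that follows the level, without the dim arrays, without the arrays of high actin ratio, and each array of the time left out in turn (0 to 0). Without LA 4 h replicate 2 no fit could be made, since the other LA arrays of 4 h are alone in their sets. Alternatives added later changed it: the Ward fit called 1 at 12 h, the Ward fit with the larger offset 2, 2 and 2 at 8, 12 and 24 h, and the replicate block with the larger offset 1 and 1 at 8 and 12 h (Ppargc1b). All genes called in either direction were 677 of 14428 in the first. In the second they were 770, 1281 and 1293 of 14458, and in the third 141 and 92 of 14458. Targets that fell at 24 h numbered 0 in the planned fit for both lists. For ERR alpha the added settings gave 19 (Ward fit), 5 (Ward over all probe sets), 23 (Ward fit with the larger offset) and 3 (replicate block with the larger offset), and for NRF-1 or GABP 11, 1 and 14 in the first 3 of these. Of all genes, 3.72%, 1.24% and 5.54% were called lower at 24 h in these 3. In the replicate block with the larger offset 56 of 14458 were called in either direction. The cause was not tested. The replicate block changed no call of a regulator, and moved the genes called to 1, 29, 30 and 26 at 4, 8, 12 and 24 h, against 3, 1, 9 and 0 in the planned fit. The differences of Ppargc1b at 8, 12 and 24 h, and of Esrra and Nrip1 at all times, kept their sign in all settings at the level of genes. At 12 and 24 h the 6 versions of the term could not move them, as the sets were balanced there. Single probe sets went the other way: the second of Esrra at 4 h (0.55), and 1 of 6 of Nrip1 at each of 4, 12 and 24 h. That of Ppargc1a at 8 h kept it in 18 of 23, and that of Tfb2m at 8 h in 12 of 23.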
